A study of Rattus norvegicus with 24 samples.

Results

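In lung RNA of rats that inhaled hexanal, 10 heart muscle genes were followed, namely Myh6, Actc1, Tnnt2, Tnni3, Mybpc3, Myl4, Myl7, Nppa, Sln and Ckmt2. They were chosen by name with their levels, their co-variation between animals and their differences between dose groups already known, so those values are given here as a description and support nothing by themselves. Each of the 10 had 1 probe among the 30367 probes of the array. Of the 10, 9 passed the filter on dim probes and entered the 21255 genes or unnamed probes that were tested, and Nppa did not.

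Lung RNA came from 24 Fischer-344 rats, an inbred strain, with 3 males and 3 females in each of 4 groups. Control rats breathed filtered clean air, and the low-dose, middle-dose and high-dose groups inhaled hexanal, a short-chain aldehyde found in indoor air, at 600, 1000 and 1500 ppm. All were 7 to 8 weeks old at the start and were exposed for 4 h a day on 5 days a week. The sample titles and the study's methods give the doses in ppm, which is used here, while the treatment text of the labels gives the same numbers as mass per volume. That text gives 5 weeks of exposure and the methods 4 weeks, in a nose-only chamber. The labels name no transgene or engineered allele, and none says which lobe, or how much of the lung, each RNA came from. No heart sample was used here.

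The heart and the muscle of the rat's pulmonary veins contract through the sarcomere, in which myosin filaments pull on actin filaments and the troponin complex makes that pull depend on calcium. Heart muscle uses its own isoforms of many of these proteins, and atrial muscle differs from ventricular muscle in its light chains, in sarcolipin and in the hormone it stores. In rodents a sleeve of striated heart muscle reaches along the pulmonary veins into the lung, and atrial tissue lies next to the hilum. In bulk RNA, fewer cells of a type and less RNA per cell cannot be told apart.

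Promoter sequences are shown for the 4 members whose window held a GATA motif. The heart factor Gata4 and its relatives bind this element. Whether it bears on the levels of these genes was not tested. RefSeq promoter windows (build GRCr8) were matched for 9 of the 10 members, all but Sln, and the 250 bases before the annotated start were read. Tnnt2 has more than one annotated start and the first was used. Capitals mark, on either strand, the GATA letters GATAA, the TATA box with the letters TATAAA, the MCAT element with the letters CATTCC and the MEF2 site.
Tnnt2, chr13:49818873-49819122, plus strand: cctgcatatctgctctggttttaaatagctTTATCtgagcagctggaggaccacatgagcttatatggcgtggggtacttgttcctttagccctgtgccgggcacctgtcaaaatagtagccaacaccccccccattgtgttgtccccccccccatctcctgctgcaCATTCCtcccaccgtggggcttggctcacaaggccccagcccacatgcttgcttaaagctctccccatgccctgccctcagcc
Tnni3, chr1:78342321-78342570, plus strand: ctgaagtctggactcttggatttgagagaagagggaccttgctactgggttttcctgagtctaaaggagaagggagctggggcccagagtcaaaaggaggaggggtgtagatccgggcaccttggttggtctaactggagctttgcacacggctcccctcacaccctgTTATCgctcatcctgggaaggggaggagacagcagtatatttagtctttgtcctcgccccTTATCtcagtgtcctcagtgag
Mybpc3, chr3:97550811-97551060, plus strand: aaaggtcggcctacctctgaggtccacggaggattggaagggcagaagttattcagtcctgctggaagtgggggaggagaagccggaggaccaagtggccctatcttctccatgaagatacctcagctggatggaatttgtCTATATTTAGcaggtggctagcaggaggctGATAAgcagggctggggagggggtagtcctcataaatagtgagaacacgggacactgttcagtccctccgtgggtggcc
Nppa, chr5:163711934-163712183, plus strand: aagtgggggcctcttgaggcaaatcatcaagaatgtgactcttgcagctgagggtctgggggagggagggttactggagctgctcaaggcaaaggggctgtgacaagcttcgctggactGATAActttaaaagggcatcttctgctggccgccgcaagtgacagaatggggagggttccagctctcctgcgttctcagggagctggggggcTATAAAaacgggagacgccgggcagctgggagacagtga
The letters GATAA were in the windows of 4 of 9 members, against 23.5% of 33469 rat promoters of the same length, TATAAA in 2 of 9 (12.9% of all), CATTCC in 2 of 9 (12.1%), the MEF2 site in 1 of 9 (2.96%) and the SRF CArG box in 0 of 9 (1.5%). CANNTG, the E-box, was in 7 of 9 (65.5% of all), and AAGTG, the core of the NKX2 element, in 3 of 9 (40.6%), where an AAGTG can lie inside a CANNTG. Both strands were searched. No motif was in every window, and Actc1 held none of the 7 kinds. A match or its lack says only which letters are in the window.

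Levels are given on 1 scale, the log2 signal of a probe relative to the 75th percentile over its array, so that 0 is the level of that percentile and 1 unit is a doubling. The 75th percentile was between 1700.9 and 3132.9 signal units over the 24 arrays, between 70.7% and 81.8% of probes were well above background, and no spot was saturated. All 9 lung epithelial genes checked, among them the surfactant genes Sftpc and Sftpb, were well above background on every array, as the tissue label says. Their summed level spanned 558 to 754 times the 75th percentile over all rats. A level of 1 probe is not set against that of another probe. The arrays lay on 6 slides of 4, each with rats of 1 sex, and no slide held control rats together with middle-dose or high-dose rats. Nothing in the labels says that the rats were littermates or that RNA was pooled.

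**Figure D1:**
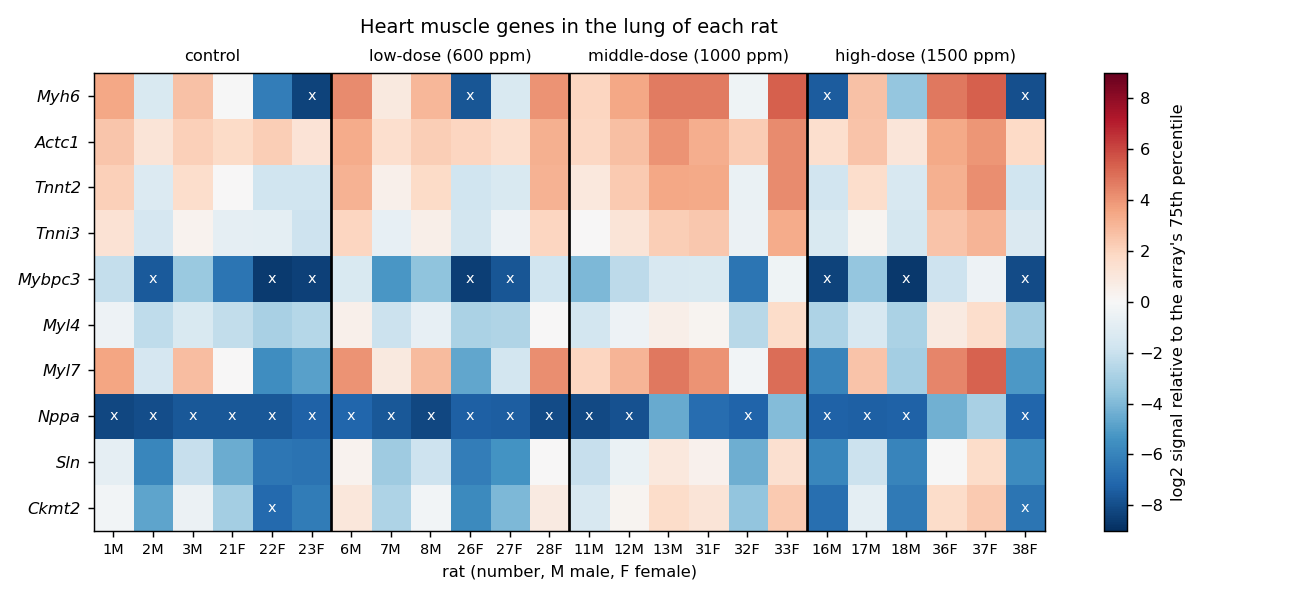
Log2 level of the 10 heart muscle genes (rows) in each of 24 rats (columns, with the rat's number and sex), relative to the 75th percentile of the array. A white x marks a probe not well above background. Rat 33 has one of the 2 reddest or least blue cells in every row and rat 37 one of the 3, while rats 23 and 16 are among the 5 lowest in 8 of the 10 rows each.

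The thick filament is led by Myh6, the alpha heavy chain of cardiac myosin and the main motor of rodent heart muscle. Its level in the 6 control rats was lowest at -8.30, with a median of -0.71 and a highest value of 3.46. In the low-dose rats it ran from -7.67 to 4.28 (median 1.93), in the middle-dose rats from -0.39 to 5.36 (median 4.06) and in the high-dose rats from -7.93 to 5.41 (median -0.43). The lowest and the highest rat differed by 13.71 log2 units, the widest range of the 10 members. Myh6 was well above background in 5, 5, 6 and 4 of 6 arrays in the order of dose. The 4 groups overlapped, and each of the control, low-dose and high-dose groups held at least 1 rat with the probe below background beside rats near the top of the range. Mybpc3, the cardiac myosin-binding protein C that ties the thick filament together, had a median of -7.05 in control rats (-8.60 to -2.15), -4.43 in low-dose rats (-8.47 to -1.36), -1.87 in middle-dose rats (-6.58 to -0.36) and -5.76 in high-dose rats (-8.67 to -0.48). It was above background in 3, 4, 6 and 3 of 6 arrays in the order of dose, so it passed the filter only through the middle-dose group, where its mean was highest.

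The thin filament members were above background on all 24 arrays. Actc1, cardiac alpha-actin, had the narrowest range (3.18 log2 units), with a median of 1.92 in control rats (1.17 to 2.51), 2.06 in low-dose rats (1.51 to 3.32), 3.00 in middle-dose rats (1.89 to 4.24) and 2.18 in high-dose rats (1.07 to 3.95). Tnnt2, cardiac troponin T, which anchors the troponin complex to tropomyosin, had a median of -0.59 in control rats (-1.81 to 2.16), 1.11 in low-dose rats (-1.78 to 3.16), 2.89 in middle-dose rats (-0.59 to 4.28) and 0.09 in high-dose rats (-1.80 to 4.21). Tnni3, cardiac troponin I, the inhibitory subunit whose protein is measured in blood as a sign of heart injury, had a median of -0.84 in control rats (-1.83 to 1.28), 0.04 in low-dose rats (-1.62 to 1.96), 1.67 in middle-dose rats (-0.53 to 3.34) and -0.54 in high-dose rats (-1.62 to 3.03). In all 3 genes the middle-dose rats 13, 31 and 33 and the high-dose rats 36 and 37 were among the 6 highest, and rat 33 was the highest of the 24.

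Myl4 and Myl7 are the atrial essential and regulatory light chains of myosin. Myl4 had a median of -2.25 in control rats (-2.90 to -0.47), -1.33 in low-dose rats (-2.85 to 0.44), -0.09 in middle-dose rats (-2.52 to 1.66) and -2.11 in high-dose rats (-3.23 to 1.58). Myl7 covered 11.26 log2 units, with a median of -0.73 in control rats (-5.61 to 3.52), 1.89 in low-dose rats (-4.68 to 4.16), 3.56 in middle-dose rats (-0.27 to 5.00) and -0.24 in high-dose rats (-5.97 to 5.29). Both light chains overlapped between all groups.

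Sln encodes sarcolipin, a small peptide that slows the calcium pump of the sarcoplasmic reticulum and is typical of atrium. It had a median of -5.17 in control rats (-6.61 to -0.81), -2.54 in low-dose rats (-6.24 to 0.30), -0.11 in middle-dose rats (-4.43 to 1.43) and -3.78 in high-dose rats (-5.92 to 1.64). Ckmt2, the sarcomeric mitochondrial creatine kinase that passes phosphate from ATP to creatine, had a median of -3.91 in control rats (-6.96 to -0.26), -1.54 in low-dose rats (-5.72 to 1.02), 0.71 in middle-dose rats (-3.55 to 2.33) and -3.63 in high-dose rats (-6.80 to 2.36). In both genes the low-dose rats 6 and 28 lay above every control rat.

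Nppa, the precursor of atrial natriuretic peptide, the hormone that atrial muscle releases when stretched, was near background in most rats. It was well above background in 0 of 6 control, 0 of 6 low-dose, 3 of 6 middle-dose and 2 of 6 high-dose arrays. Its level was -4.52 in rat 13, -6.83 in rat 31, -3.87 in rat 33, -4.30 in rat 36 and -2.91 in rat 37, and between -8.18 and -7.12 in the control and low-dose rats. Those 5 rats were the 5 of 24 with the highest mean level of the other 9 members. Because the probe was not well above background in any control array, the control level was set to a floor. This floor was the lowest signal that counted as well above background on each array. The measured middle-dose and high-dose means were 1.42-fold and 1.82-fold above it. Those means include arrays on which Nppa was itself not well above background, so the folds are not strict lower limits. The measured means were -7.72 ± 0.32 (SD, n = 6) in control, -6.39 ± 1.77 in middle-dose and -6.04 ± 1.94 in high-dose rats.

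**Figure D2:**
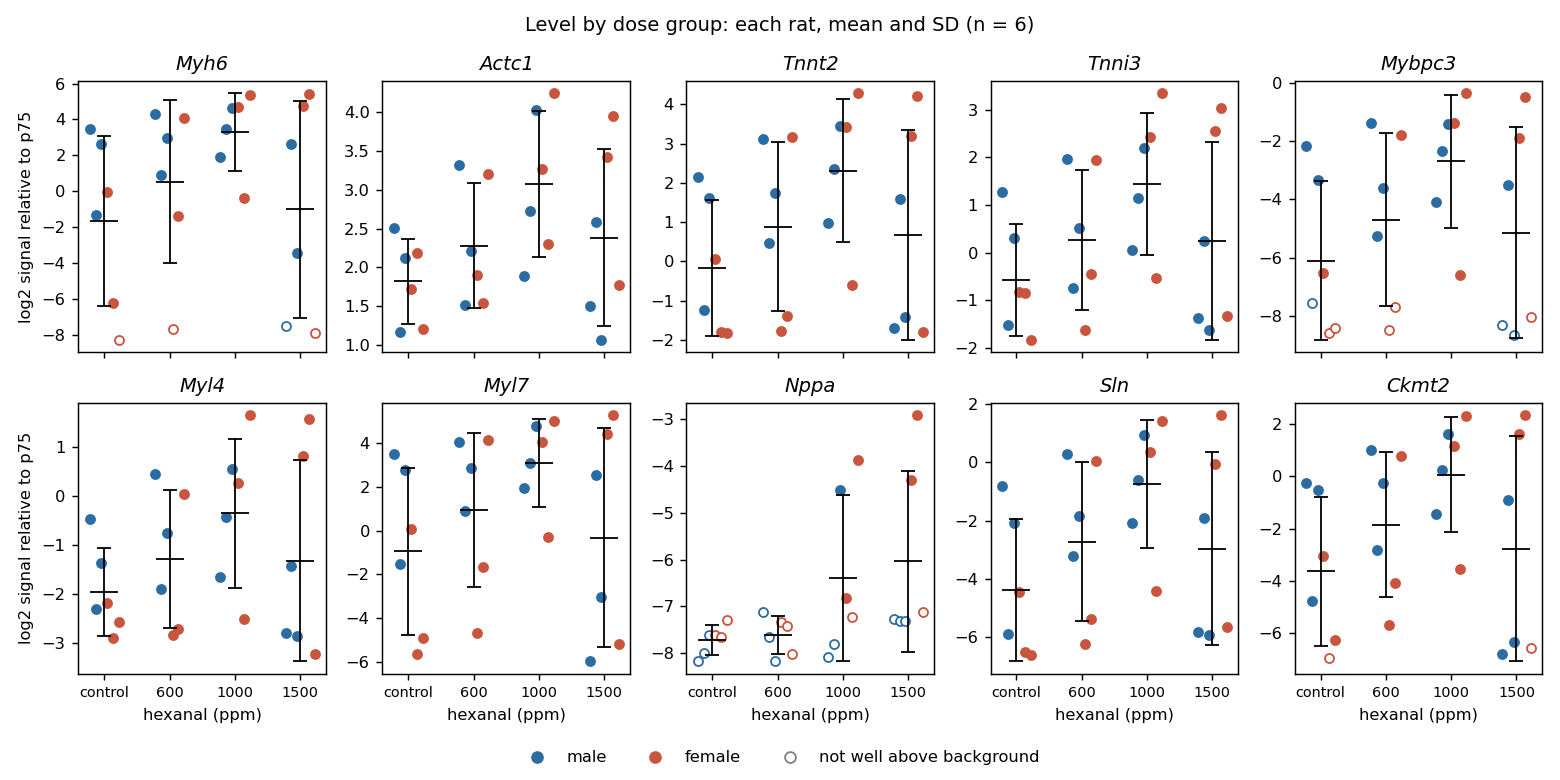
Log2 level of each heart muscle gene by hexanal dose in ppm, 1 point for each rat (blue males, red females, open points not well above background), with the mean and SD of 6 rats. Every gene overlapped between all groups, and the high-dose points lie at both ends of the range.

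The levels of the members varied together from rat to rat, which is one of the values they were chosen by. After the group mean was subtracted, Pearson's r between pairs of the 9 members other than Nppa was between 0.69 and 1.00 over 24 rats (median 0.95 of 36 pairs), and Spearman's rho on the levels themselves had a median of 0.96. Within single groups of 6 rats the median r was 0.93 in control, 0.95 in low-dose, 0.98 in middle-dose and 0.97 in high-dose rats. The lowest pair in a group was 0.50, 0.61, 0.81 and 0.87 in the same order, and differences between groups were not tested. The 9 pairs with Nppa had a median r of 0.53, and Nppa was at background in 19 of 24 rats. Ckmt2 followed the mean of the other members most closely (r = 0.99) and Actc1, among the 9, least (r = 0.83). The points of each correlation share their array and its scaling.

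**Figure D3:**
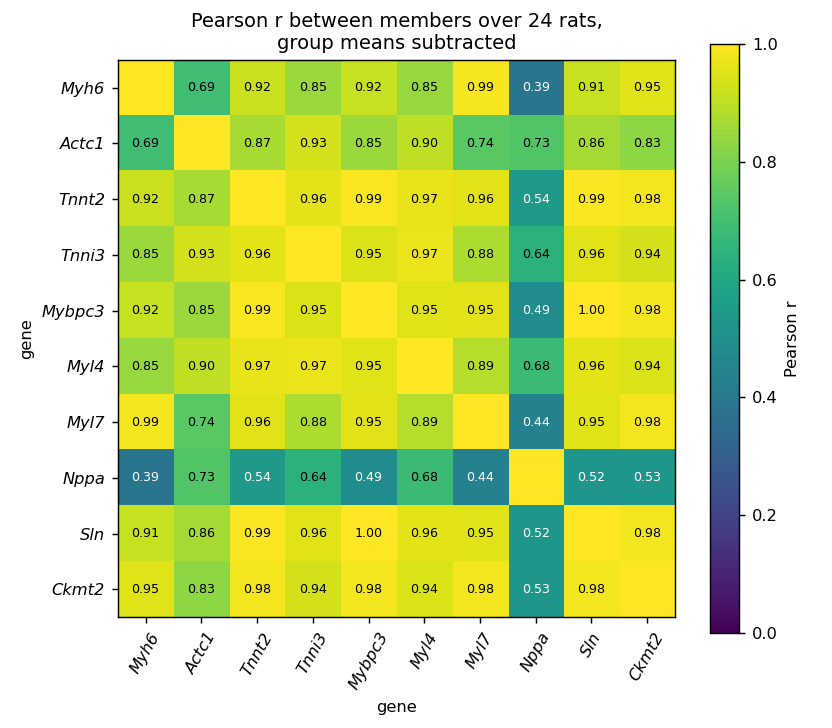
Pearson r between each pair of heart muscle genes over 24 rats after each group's mean was subtracted. The pairs without Nppa lie between 0.69 and 1.00, and the 9 pairs with Nppa between 0.39 and 0.73.

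The mean level of the 9 members that passed the filter gave 1 value for each rat. It was -1.96 ± 2.24 (SD, n = 6) in control rats (-4.39 to 1.03), -0.63 ± 2.42 in low-dose rats (-4.12 to 1.90), 1.06 ± 1.82 in middle-dose rats (-1.84 to 3.03) and -1.14 ± 3.32 in high-dose rats (-4.31 to 3.00). Rat 33 of the middle-dose group was the highest of all with 3.03, followed by rat 37 of the high-dose group with 3.00. Rat 23 of the control group was the lowest with -4.39, and rats 16 and 38 of the high-dose group were next with -4.31 and -4.22. Above every control rat lay 2 of 6 low-dose, 4 of 6 middle-dose and 2 of 6 high-dose rats, and no exposed rat lay below every control rat. The high-dose group thus held rats from both ends of the range.

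The same rats led in nearly every member. Rat 33 was among the 2 highest of 24 for all 10 genes and rat 37 among the 3 highest, and each was the highest of all for 5 genes. Rat 13 was among the 5 highest for all 10. Rat 1, a control, was among the 10 highest for each of the 9 genes other than Nppa. At the other end, rats 23 and 16 were among the 5 lowest for 8 of the 10 genes each. High and low rats were found in both sexes and on several slides, but not evenly. By the member mean, rats 33, 37 and 36 of slide 6 ranked 1, 2 and 4 from the highest, and rat 38 of that slide 22. Rats 23, 22 and 26 of slide 2 ranked 24, 21 and 20, and rat 21 of that slide 15. Both slides held females.

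The order of the group means was control, high-dose, low-dose, middle-dose from lowest to highest in 8 of the 9 genes other than Nppa. In Actc1 the low-dose and high-dose groups changed places. Of the 27 steps between neighbours in these orders, 25 were smaller than the smaller SD of the groups they separate. The others were the step from low-dose to middle-dose in Myh6 (2.76 against an SD of 2.17) and the same step in Myl7 (2.15 against 2.00).

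Differences from control are described next with no test for the members, since these contrasts chose them, and all 3 share the same control rats. Nppa, for which control rats give only the floor above, is left out of the counts. At 1000 ppm the other 9 members had a higher mean than in control rats, with a median difference of 3.41 on the log2 scale against 0.00 over all 21255 genes tested. With Nppa at its fold above that floor the median over 10 members was 2.95. The difference was 4.93 ± 2.52 (SE, 6 rats against 6) for Myh6, 3.41 ± 1.61 for Mybpc3, 1.26 ± 0.49 for Actc1, 2.48 ± 1.17 for Tnnt2 and 2.02 ± 0.87 for Tnni3. It was 1.61 ± 0.84 for Myl4, 4.04 ± 2.05 for Myl7, 3.67 ± 1.48 for Sln and 3.70 ± 1.72 for Ckmt2. These are folds from 2.39 for Actc1 to 30.5 for Myh6, and between 3 and 4 of the 6 middle-dose rats lay above every control rat in each gene. In control rats Mybpc3 was well above background on only 3 of 6 arrays, and Myh6 and Ckmt2 on 5 of 6. The sizes of their differences from control, at every dose, therefore depend on signals near background.

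At 600 ppm the 9 members again had the higher mean, with a median difference of 1.40 (all genes tested 0.00) and a range from 0.46 for Actc1 to 2.17 for Myh6. Only 2 of 6 low-dose rats, rats 6 and 28, lay above every control rat in each of the 9 genes. Nppa was at background in all control and low-dose rats, so no difference is given for it at this dose. At 1500 ppm the median difference was 0.83 (all genes tested 0.01), from 0.56 for Actc1 to 1.44 for Sln, and all 9 means were higher than control. With Nppa at its fold above the control floor the median over 10 members was 0.84. The 3 males and the 3 females of the high-dose group lay far apart, as given below.

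At a fold change of at least 1.5 with an unadjusted limma p-value under 0.05, 6 of the 9 tested members were past the threshold and higher at 1000 ppm, where 1.29% of all genes tested were called higher. These were Actc1, Tnnt2, Tnni3, Mybpc3, Sln and Ckmt2, and Myh6, Myl4 and Myl7 were not, although the differences of Myh6 and Myl7 were larger. Mybpc3 had passed the filter on dim probes only through the middle-dose group. The count is 0 of 9 at 600 ppm (0.16% of all genes) and 0 of 9 at 1500 ppm (0.701%), and no member had a Benjamini-Hochberg adjusted p-value under 0.05 at any dose (0%, 0.0188% and 0.0047% of all genes in the order of dose). Since the members were selected on these contrasts, nothing is read from the counts. The methods' t-test, for which the study set the same fold and p-value limits, put 9 members past the threshold at 1000 ppm (1.19% of all genes called higher) and 0 at 600 ppm (0.108%) and 1500 ppm (0.527%), and 0 members after Benjamini-Hochberg adjustment at any dose. With normexp background correction the limma count at 1000 ppm was 3, and with the slide as a block 0. The share of all genes called is not given for these settings or with a rat left out, so a fall cannot be set against it. Leaving out rat 33 took the count at 1000 ppm from 6 to 0, and leaving out control rat 23 took it to 1. Without control rat 2 or 22 or middle-dose rat 13 or 31 it was 2, without control rat 21 or middle-dose rat 12 it was 3, and without control rat 1 or middle-dose rat 32 it was 9.

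Slides were compared within sex where a slide held 2 groups. On slide 1 (males) the single low-dose rat 6 was above the mean of 3 control rats in all 9 members other than Nppa, by a median of 2.45. On slide 2 (females) the single low-dose rat 26 was above the mean of 3 control rats in 1 of the 9, with a median difference of -0.45. The 2 middle-dose rats on each of slides 3 and 4 exceeded the 2 low-dose rats there in 9 of 9 members on both slides, with medians of 0.71 and 0.52.

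The single middle-dose rat on each of slides 5 and 6 was higher than the mean of the 3 high-dose rats in all 9 members, with median differences of high-dose minus middle-dose of -5.41 in males and -2.79 in females. Those single rats were rats 13 and 33, both among the highest of all. With the slide as a block the median difference from control over the 9 members was 0.79 at 600 ppm, 1.26 at 1000 ppm and -1.81 at 1500 ppm, and no member was past the threshold at 1000 ppm. Control and middle-dose or high-dose rats are linked in that fit only through the low-dose and middle-dose rats on slides 1 to 6. The direction of the median at 1500 ppm was therefore opposite with and without the slide in the fit. With the slide, each member's difference at 1500 ppm was smaller than its SE, from -5.29 ± 5.36 for Myh6 to -0.53 ± 0.98 for Actc1. The sign at this dose is thus not settled.

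Sex was not part of how the members were chosen and was tested. No slide held both sexes, so a difference between the sexes cannot be told apart from one between slides, for the members or for all genes. Over the 12 females and 12 males, 0 of the 9 tested members had an adjusted limma p-value under 0.05 for sex (the lowest was 0.471 and the highest 0.977), where 24.9% of all genes tested had one. At an unadjusted p-value under 0.05 it was 0 of 9 members and 37.6% of all genes. Myh6 had a mean of -0.64 ± 5.61 (SD, n = 12) in females and 1.21 ± 3.61 in males, a difference of -1.85 ± 1.78 (SE). Myl7 was lower in females by -1.27 ± 1.46, Actc1 higher by 0.34 ± 0.34 and Myl4 by 0.03 ± 0.61. The SD over females was the larger one in all 9 genes.

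The dose groups were less alike between the sexes. In males the median difference of the 9 members from control was 0.94 at 600 ppm, 1.67 at 1000 ppm and -1.62 at 1500 ppm, and in females it was 1.87, 4.98 and 4.38. At 1500 ppm the difference was above 0 in 9 of 9 members in females and in 0 of 9 in males. Myh6 differed from control by -4.37 in high-dose males and by 5.62 in high-dose females. The 3 control females were low, with a mean of the 9 members of -3.41 against -0.50 in control males, and the difference in females is set against them.

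Whether females and males differed in their response to a dose was tested by limma on 8 groups of 3 rats. It had the same sign, larger in females, in 9 of 9 tested members at each dose, with a median of 0.65 at 600 ppm, 2.62 at 1000 ppm and 6.12 at 1500 ppm. No member had an adjusted p-value under 0.05 at any dose, and the lowest was 0.990, 0.717 and 0.211 in the order of dose. Over all genes the test called 0% at 600 and 1000 ppm and 5.02% at 1500 ppm. At an unadjusted p-value under 0.05 there were 0, 0 and 4 members, beside 4.99%, 9.41% and 20.2% of all genes in the order of dose, the 4 at 1500 ppm being Mybpc3, Myl7, Sln and Ckmt2. Because the members move together, they do not count as separate pieces of evidence, and 3 rats in a sex and group with SE values from 0.97 to 4.80 leave large differences undetected. As no slide held both sexes, a sex difference in response cannot be told apart from one between slides.

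**Figure D4:**
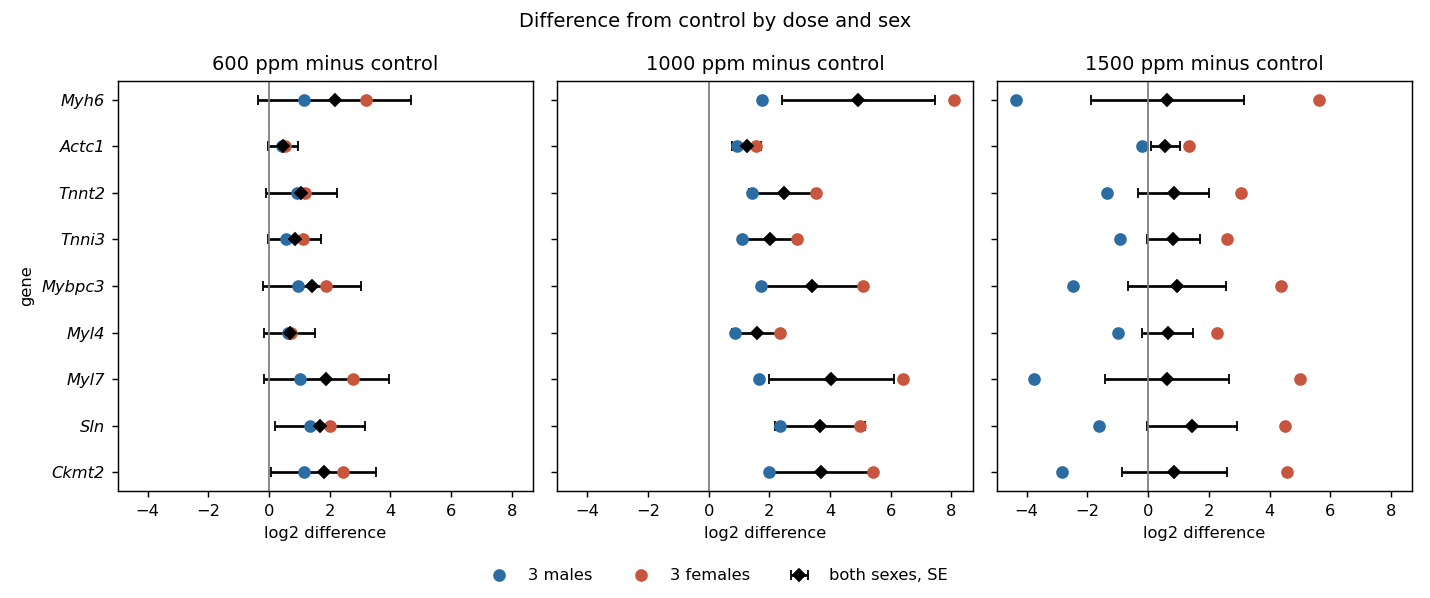
Difference from control (log2) of the 9 heart muscle genes other than Nppa at 600, 1000 and 1500 ppm. Diamonds with bars are the difference over both sexes with its SE, blue points the 3 males and red points the 3 females of each group. At 1500 ppm all 9 male points lie below 0 and all 9 female points above it.

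Other heart genes were taken from a list of 67, of which 59 were named on the array and 49 were tested. At 1000 ppm, 45 of the 49 had a higher mean than control and 4 a lower one, 18 were past the threshold and higher, 0 were past it and lower, and none had an adjusted p-value under 0.05. Their median difference was 0.72 against 0.00 for all genes tested, and the 18 of 49 stand beside 1.29% of all genes. The list was chosen with earlier results of these data known. Of the 49, 23 had a Pearson's r above 0.8 with the mean of the 9 members after group means were subtracted. The count is therefore a description and no evidence separate from the members. With the slide as a block 3 of the 49 were past the threshold at 1000 ppm, and with normexp background correction 3, so most of the calls named in the next paragraphs were lost under each. At 600 ppm 0 of 49 (0.16% of all genes) and at 1500 ppm 1 of 49 (0.701%), Cav3 of the muscle caveolae, were past the threshold and higher. The counts with the slide as a block, with normexp or with a rat left out have no such share beside them. Without rat 33 the count at 1000 ppm fell from 18 to 2, and without rat 13 to 3. It was 4 without control rat 2 or middle-dose rat 31, 5 without control rat 22, 6 without control rat 23 and 7 without control rat 21.

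Among other sarcomere genes, 5 of 10 tested were past the threshold at 1000 ppm. These were Tnnc1, the calcium-binding troponin C (2.40 ± 1.10, SE), Actn2, the alpha-actinin of the Z disc (1.77 ± 0.78), Tcap, which caps titin (1.76 ± 0.82), the leiomodin Lmod2 (1.16 ± 0.43) and Mybphl, a myosin-binding protein typical of atrium (2.57 ± 1.05). Myh7, the beta heavy chain of myosin that rat ventricle uses before birth and under load, differed by 4.03 ± 2.05 and Csrp3, the muscle LIM protein, by 3.40 ± 1.72, and neither was past the threshold. Myh7 and Csrp3 were well above background on 19 of 24 arrays, Actn2 on 18 and Mybphl on 22. The sizes of their differences therefore depend in part on signals near background. The ventricular light chains Myl2 and Myl3 did not pass the filter and were above background on 10 and 13 of 24 arrays. Ttn, the gene of titin, was not matched by symbol and is not analysed here.

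In calcium handling and conduction 4 of 18 were past the threshold at 1000 ppm. These were Casq2, the calcium store of the sarcoplasmic reticulum (2.12 ± 0.95), Pln, phospholamban, which restrains the calcium pump (1.49 ± 0.65), Trdn, triadin (1.66 ± 0.76), and Chrm2, the muscarinic receptor through which the vagus slows the heart (0.81 ± 0.30). Ryr2, the release channel, differed by 0.18 ± 0.14, and Atp2a2, the calcium pump, by 0.18 ± 0.07. Gja5, a gap junction gene of atrial muscle and also of arterial endothelium, differed by -0.17 ± 0.09.

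Of the hormones and transcription factors 1 of 6 was past the threshold at 1000 ppm, Nkx2-5, a factor needed for heart formation (0.68 ± 0.31). Gata4 differed by 0.56 ± 0.39 and Tbx5, a factor of both heart and lung, by 0.13 ± 0.14. Nppb, the other natriuretic peptide of heart muscle, was above background on 1 of 24 arrays, and Bmp10, which is made in atrium, on 0 of 24. Of 15 energy and other genes 8 were past the threshold. Among them were Mb, the oxygen store myoglobin (2.31 ± 0.98), Fabp3, the fatty acid carrier of heart (2.69 ± 1.20), Ckm, the cytosolic muscle creatine kinase (1.84 ± 0.80), and Cox6a2, the muscle form of a cytochrome oxidase subunit (2.88 ± 1.38). The lowest adjusted p-value among the tested heart genes at 1000 ppm was 0.515.

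The genes most like the members were ranked by Pearson's r with the mean of the 9 members over 24 rats after the group means were subtracted. Csrp3 was first (r = 1.00), then Cox6a2 (1.00), 2 unnamed probes (0.99 each), Myh7 (0.99), Hhatl (0.99), an unnamed probe, Mybphl (0.97) and Tnnc1 (0.97). The rest of the 20 were Hrc, a calcium-binding protein of the sarcoplasmic reticulum (0.97), Fabp3 (0.96), Hamp, the iron hormone hepcidin (0.96), Myh8, the perinatal myosin (0.96), Rbfox1, a splicing factor (0.96), Pgam2, the muscle phosphoglycerate mutase (0.96), Tcap (0.94), Casq2 (0.94), Mb (0.93) and 2 more unnamed probes. Csrp3 and Myh7 were well above background on 19 of 24 arrays and Hhatl on 16, so their r rests in part on signals near background. Over all genes tested 70 (0.329%) had an r above 0.8, and the median r was -0.08. These values are a description, since an r of this size is what the members were chosen to share.

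The heart lists did not move as 1 block. Of the other sarcomere genes 9 of 10 had an r above 0.8 (median 0.91), and of the energy genes 9 of 15 (median 0.82), but of calcium and conduction genes 5 of 18 (median 0.42) and of hormones and factors 0 of 6 (median 0.13). In calcium handling the 5 were Hrc, Casq2, Trdn, Pln and Chrm2, while Ryr2 (r = 0.12), Hcn4, the pacemaker channel (-0.14), Gja5 (-0.27) and the calcium channel Cacna1c (-0.43) were not among them. Of the atrial genes Sln, Myl7 and Myl4 were above 0.8, but they are members and part of the mean they were compared with. Of the tested atrial genes outside that mean, Mybphl (0.97) was above 0.8. Gja5 and the potassium channels Kcna5 (0.39) and Kcnj3 (-0.23) were below it. Of the 2 tested ventricular genes, Myh7 was at 0.99 and the factor Hey2 at -0.38.

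**Figure D5:**
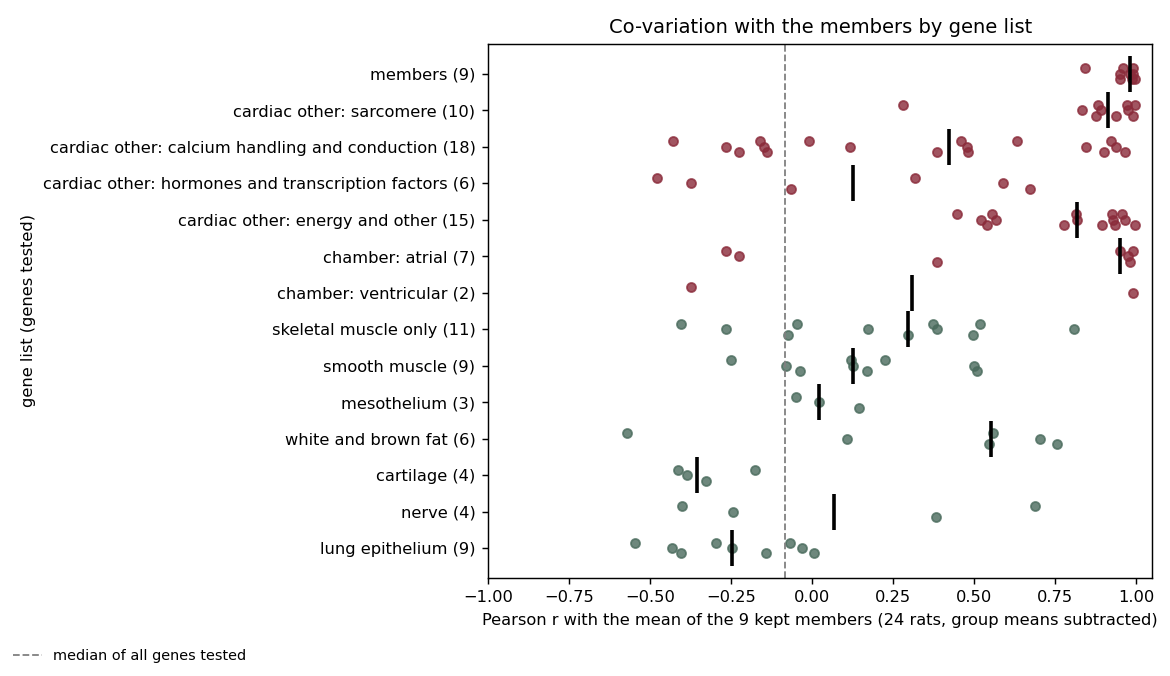
Pearson r of single genes with the mean of the 9 members over 24 rats (group means subtracted), by gene list, with the list's median as a black bar and the median of all genes tested, -0.08, as a dashed line. Sarcomere and energy genes of heart lie near the members, and lung epithelial genes lie at or below 0.00.

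Markers of other tissues that a lung piece could hold were read beside these values. Skeletal muscle genes had 1 of 11 with an r above 0.8, Tnnc2 of fast troponin (0.81), and a median of 0.30, and their summed level was 0.90 to 1.23 times the 75th percentile in control rats and 0.96 to 1.85 in middle-dose rats. Of the 18 skeletal genes on the array 9 were above background on all 24 arrays, among them Acta1, Tnnt3 and Tnnc2. Myod1, which defines the skeletal lineage, was above background on 0 of 24 arrays, Myh1 on 1, Myl1 on 3 and Myh4 on 9. Acta1 and Tnnc2 of the skeletal list were past the threshold at 1000 ppm, with differences of 0.90 ± 0.31 and 1.13 ± 0.52.

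Fat markers moved with the members in part. The median r of 6 fat genes was 0.55, with 0.70 for the adipocyte hormone Adipoq, 0.76 for Cidea of brown fat and 0.55 for the brown fat uncoupler Ucp1, and with -0.57 for leptin, Lep. Adipoq differed from control by 2.66 ± 1.25 at 1000 ppm and was past the threshold, and Cfd, adipsin, was past it at 1500 ppm (0.65 ± 0.31). The summed fat level was 2.29 to 3.37 in control, 2.79 to 4.47 in low-dose, 2.57 to 8.57 in middle-dose and 2.69 to 10.6 in high-dose rats, and 3 of the 6 genes were above background on all arrays. Its part in the members' differences was not tested.

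Other lists had no gene above 0.8. The median r was 0.13 for 9 smooth muscle genes, 0.02 for 3 mesothelial genes, 0.07 for 4 nerve genes with 0.69 for Mbp of myelin, -0.36 for 4 cartilage genes and -0.25 for 9 lung epithelial genes. Of the smooth muscle list Cnn1 was past the threshold at 1000 ppm (0.60 ± 0.21), and the summed level of that list was 32.5 to 42.7 in control and 36.3 to 48.7 in middle-dose rats. Comp of the cartilage list was past the threshold at 600 ppm (0.60 ± 0.28). Of the 3 thymus genes Rag1 was above background on 0 of 24 arrays, Rag2 on 2 and Dntt on 9, and none was tested. The summed level of the lung epithelial list was 627 to 720 in control and 558 to 754 in middle-dose rats, with none of its genes past the threshold at any dose.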

How the data were processed

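One-colour Agilent arrays measured the lung mRNA of 24 rats. The authors' deposited intensities are Feature Extraction processed signals, with the local background subtracted and no scaling between arrays. Control spots and spots marked as outliers were left out, and the spots of a probe were averaged (30367 probes, 18355 of them matched to a symbol through a GRCr8 gene table used for names only). Each array's 75th percentile was taken from its log2 signals. A probe had to be well above background on 5 or more of the 6 arrays in 1 group, and a gene with several such probes was read from the brightest. The 4 groups entered 1 fit (lmFit and eBayes of limma 3.58.1 in R 4.3.3), which was checked on simulated data, and p-values were adjusted over all genes by the Benjamini-Hochberg method. Where nothing states the independence of rats, p-values cover the spread between these samples. The number of arrays limits the precision.

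The members and gene lists were chosen with earlier results of these data known. Named genes were all members, the 20 genes with the highest r with them, fixed heart genes, and examples of each other list. Alternatives were the background correction (normexp, offset 50), quantile and median scaling, the authors' table, other filters, the methods' t-test, control and 1 dose only, sex, the slide, the mean of all probes, each rat left out, and the member mean as a covariate, which was chosen after seeing the data. A DNA methylation part of the study was not used here.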

Additional observations from a re-analysis of the deposited data

How the results depend on the processing

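Each member had 1 probe, so no value of another probe of a member was to be had. The medians here are over 10 members with Nppa at its measured level, which was at background in all control and low-dose rats. On that basis the main values were 1.23, 2.95 and 0.84 in the order of dose. They are not to be set against the medians over 9 members above. The median member difference kept its direction at all doses under normexp (0.74, 2.13 and 0.52 in the order of dose), quantile normalization, median scaling, the authors' table and each rat left out. With the slide as a block it turned to -1.81 at 1500 ppm, where each member's SE exceeded its difference. In that fit members past the threshold at 1000 ppm fell to 0 and other heart genes to 3, with 1 other heart gene at 600 ppm and 0 at 1500 ppm. The counts in this section stand without the share of all genes called under the same setting. Normexp gave 3 members and 3 other heart genes at 1000 ppm and 0 other heart genes at 1500 ppm, and turned the median female minus male difference from -0.45 to 0.14. With no filter on dim probes there was 1 other heart gene at 600 ppm, and 1 member and 2 other heart genes at 1500 ppm. The methods' t-test and the fit on control and 1 dose each gave 2 other heart genes at 1500 ppm. With the member mean as a covariate, chosen after seeing the data, 0 other heart genes were past the threshold at 1000 ppm, a count that the covariate's construction lowers, since it is built from the members these genes vary with. The cause was not tested in any of the others.

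With each rat left out, the median difference was between 0.67 and 1.87 at 600 ppm, between 2.52 and 3.63 at 1000 ppm and between 0.10 and 1.63 at 1500 ppm. Members past the threshold numbered 0 at 600 ppm, 0 to 9 at 1000 ppm and 0 at 1500 ppm, and other heart genes 0 to 1, 2 to 26 and 0 to 3. The median sex difference was between -0.88 and 0.14, the last without rat 38, and 0 members had an adjusted p-value under 0.05 for sex. Of the values of single members under other settings, 138 moved by less than 1 SD between rats and 12 by more, Nppa under normexp at 1000 and 1500 ppm and all 10 members with the slide block at 1500 ppm. No paired analysis was possible because each rat's number is its own and no number is shared between groups. Among the members, signal over background most limits Nppa, Mybpc3 and Myh6, whose probes were at background on 19, 8 and 4 of 24 arrays.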
